A study of Saccharomyces cerevisiae with 7 samples.

Results

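The respiratory chain and ATP synthase of budding yeast (Saccharomyces cerevisiae) were described here through 39 nuclear genes, taken by their systematic names as subunits of these complexes. They are the NADH dehydrogenase genes NDI1, NDE1 and NDE2, the succinate dehydrogenase genes SDH1 to SDH4, 9 genes of the bc1 complex, the cytochrome c genes CYC1 and CYC7, 9 genes of cytochrome oxidase, and 12 genes of the ATP synthase with its inhibitor INH1. All 39 had values at every hour, among 5666 genes with values in the whole table. The study followed messenger RNA through meiosis at 7 time points (1, 2, 3, 4, 5, 6 and 8 h), each compared with 0 h. Poly(A)+ RNA of each hour competed on 2-colour arrays with a common mix of RNA from all hours, and the authors' value is the log2 of that ratio divided by the same ratio at 0 h. The series design names 3 independent cultures, but the table holds a single column per hour, and replicate errors are therefore missing from all values below. Strain, genotype and culture media are not given here. Subunits encoded by the mitochondrial genome are not among the 39.

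In respiring yeast, electrons enter the chain from NADH through single-protein dehydrogenases, since this yeast lacks the large proton-pumping complex of animals, and from succinate through succinate dehydrogenase. The bc1 complex passes them to cytochrome c, and cytochrome oxidase passes them on to oxygen. The ATP synthase uses the resulting proton gradient to make ATP. Sporulating yeast lives on a non-fermentable carbon source such as acetate, and respiration is required for entry into meiosis.

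A value of 0 is the level at 0 h and a log2 value of -1 is a 2-fold lower level. A gene is called repressed or induced below when it stood at least 2-fold below or above 0 h at 2 or more consecutive sampled hours, which is a rule of size and not a test. The words rose and fell are kept for genes whose course over the 7 hours passed a limma trend test, which fits a second-degree curve in time, at a Benjamini-Hochberg adjusted p under 0.05 taken over 5666 genes. Such a p weighs the curve against the scatter of single hours around it, and the variation between cultures does not enter. The course itself was marked by IME2, the meiotic kinase gene, at 4.38 at 1 h, and by NDT80, the activator of middle meiotic genes, at -0.24 at 1 h and 6.98 at 8 h. In a bulk culture, fewer cells expressing a gene and less RNA per cell cannot be told apart.

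Most subunit genes stood below their 0 h level at the first hour and stayed below it. From 1 h to 8 h their median log2 ratio was -1.06, -0.92, -0.75, -0.65, -1.23, -1.26 and -1.41, against medians of all genes between -0.04 and 0.01. Repressed members numbered 25 of 39, against 16.4% of all genes, and 1 member (COX5B) was induced, against 21.8% of all genes. The 13 in neither class were NDE1, NDE2, SDH2, SDH4, COR1, QCR6, QCR9, CYC7, COX9, ATP7, ATP15, ATP20 and INH1. All 7 values were below 0 in 34 members, against 25.3% of all genes, and all 7 were at least 2-fold below 0 h in 10 members (NDI1, QCR7, QCR10, CYC1, COX5A, COX6, COX12, ATP2, ATP3 and ATP4), against 2.72% of all genes. At 1 h 21 members were already at least 2-fold below 0 h (against 10.3% of all genes). At 2 h there were 19 (7.92%), at 3 h 14 (8.1%) and at 4 h 12 (9.76%). The count then stood at 22 for 5 h (15.4%), 24 for 6 h (14.3%) and 26 for 8 h (12.8%). Values below 0 of any size were found in 36 members at 1 h (48.9% of all genes), 38 at 2 h (50.6%), 36 at 3 h (50.5%) and 36 at 4 h (49.6%), then in 38 at 5 h (50.8%), 38 at 6 h (50.8%) and 37 at 8 h (51.5%). When the ratio was taken to 1 h in place of 0 h, 3 members were repressed (7.69%), against 10.7% of all genes under that setting.

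**Figure D1:**
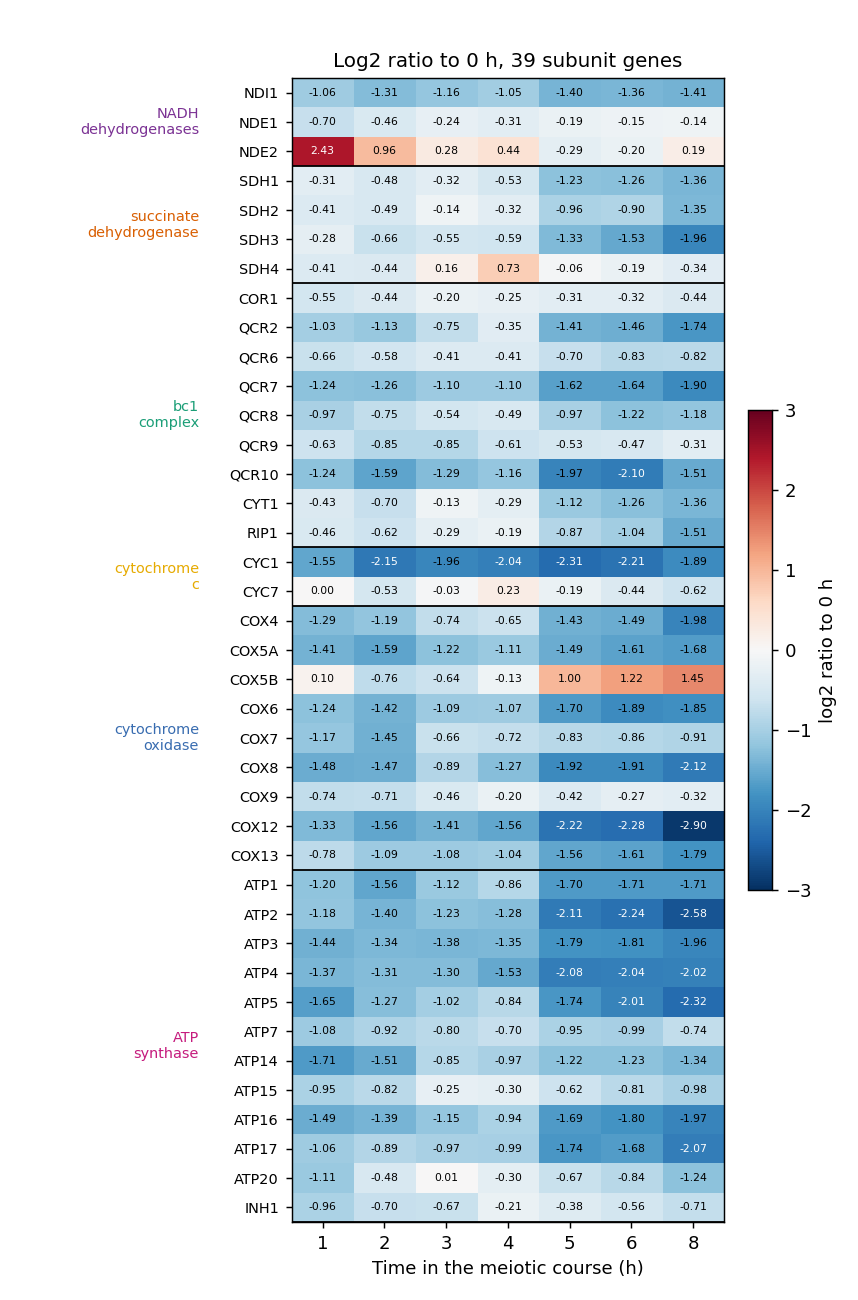
Log2 ratio to 0 h of the 39 subunit genes (down the page, grouped by complex) at 7 hours of the meiotic course (across), with 1 deposited column per hour. Blue is lower and red is higher than at 0 h, and the number in each cell is the value. NDE2 at 1 h (2.43) and COX5B at 8 h (1.45) are the highest values, and COX12 at 8 h (-2.90) is the lowest.

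The median of the members had a partial recovery up to 4 h and a second low from 5 h. Between 1 h and 4 h the value was higher at 4 h in 30 of 39 members, against 54.2% of all genes, with a median difference of 0.23 against 0.07 over all genes. The other 9, NDE2, SDH1, SDH3, CYC1, COX5B, COX12, COX13, ATP2 and ATP4, were lower (45.1% of all genes). The median difference of 0.23 was no larger than the members' median scatter of single hours around their curves (SD 0.236). Between 4 h and 5 h the value was lower at 5 h in 36 members, against 57.7% of all genes, with a median difference of -0.52 against -0.11. Higher at 5 h were NDE1, QCR9 and COX5B, 3 of 39 against 41.7% of all genes. Between 5 h and 8 h the value was lower at 8 h in 30 members, against 50.6% of all genes, with a median difference of -0.20 against -0.01. The other 9 stood higher (NDE1, NDE2, QCR9, QCR10, CYC1, COX5B, COX9, ATP4 and ATP7, against 48.6%). Single differences of 2-fold or more were few. At 4 h SDH4 stood 1.14 above and NDE2 1.99 below its own 1 h value (1 member each, against 10.6% of all genes at least 2-fold higher and 5.47% at least 2-fold lower). At 5 h QCR2 stood 1.06 below and COX5B 1.13 above its own 4 h value (1 member each, against 1.38% of all genes at least 2-fold lower and 9.35% at least 2-fold higher). From 5 h to 8 h there were 0 in either direction, against 0.406% of all genes lower and 4.71% higher.

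The whole table spread wider at the same point, with an SD over all genes of 1.05 at 4 h and 1.48 at 5 h. With every column scaled to the same SD, the median difference of the members from 4 h to 5 h was -0.15. Under that scaling 12 members were higher at 5 h (the share of all genes is not given here). The members' median was then -1.39, -1.24, -0.97, -0.73, -0.97, -0.99 and -1.10 from 1 h to 8 h, lowest at 1 h rather than at the end. The part of this wider spread in the second low was not tested. Neighbouring late columns differed little, with a median absolute difference between 5 h and 6 h of 0.09 over the members and 0.11 over all genes.

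**Figure D2:**
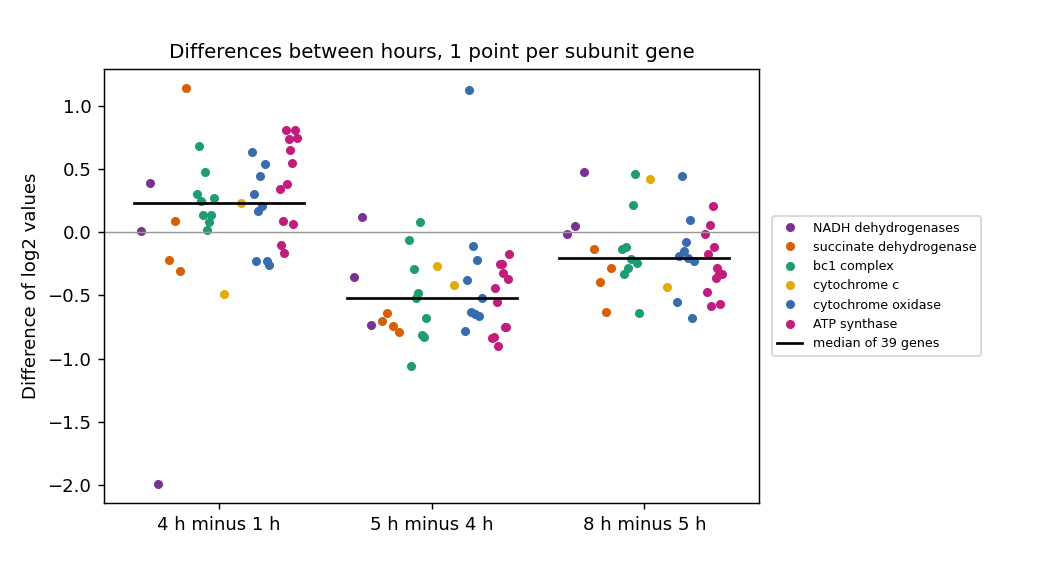
Differences of log2 values between hours (vertical axis) for 3 intervals, with 1 point per subunit gene coloured by complex and a black line at the median of the 39 genes. The medians are 0.23 for 4 h minus 1 h, -0.52 for 5 h minus 4 h and -0.20 for 8 h minus 5 h.

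The trend test called 11 members as falling, against 25.2% of all genes, and 2 as rising, against 23.3%. The 11 were NDE2, SDH1, SDH2, SDH3, QCR7, RIP1, COX4, COX12, COX13, ATP2 and ATP17, and the 2 were NDE1 and COX5B. The 28.2% of members called as falling is close to the share among all genes. With columns scaled to the same SD the split was 2 falling (NDE2 and SDH3) and 5 rising (NDE1, COX9, ATP7, ATP14 and INH1), against 15.2% and 17.8% of all genes under that setting. The fitted directions of QCR7 and COX4 then turned upward without passing the test. Leaving out 1 hour at a time left 4 to 12 members falling and 0 to 2 rising. Over all genes 12.7% to 21.9% then fell and 11.8% to 26.3% rose. There were 7 members falling without 1 h or 3 h (21.8% and 17.9% of all genes), 6 without 2 h (14.5%) and 4 without 6 h (12.7%). NDE2, SDH3, COX12 and ATP2 were the 4 that fell in all 7 of these fits, and the all-gene share for this is not given here. The call was lost without some hours for SDH1 (1, 2 or 6 h), SDH2 (any hour but 5 h), QCR7 and COX4 (likewise any but 5 h), RIP1 (3, 6 or 8 h), COX13 (1 or 6 h) and ATP17 (2 or 6 h). The residual SD of an hour around its curve had a median of 0.236 over the members and 0.194 over all genes.

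**Figure D3:**
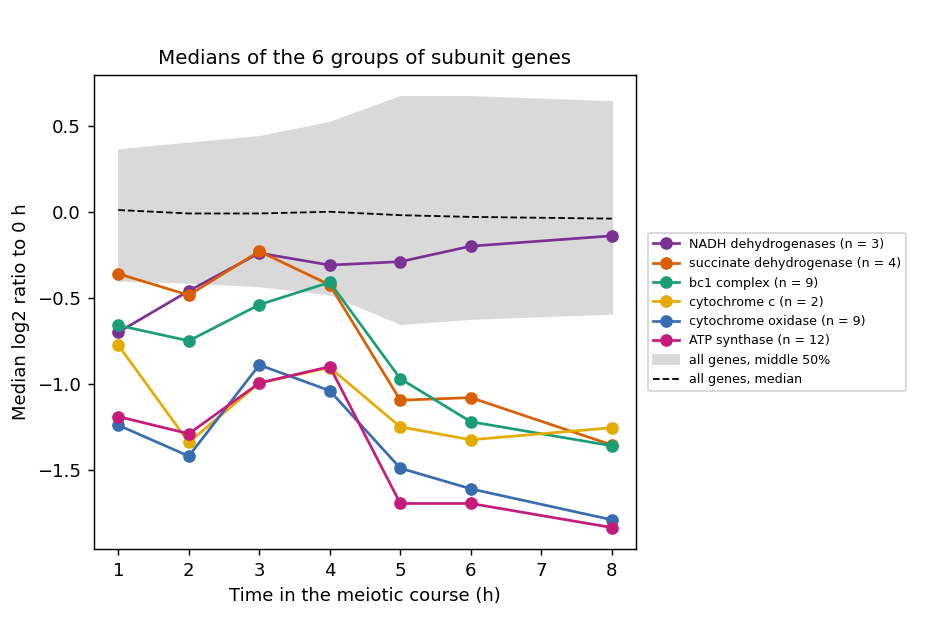
Median log2 ratio to 0 h (vertical axis) against time in hours for the 6 groups of subunit genes, with the number of genes in the legend, and the median (dashed) and middle 50% (grey) of all 5666 genes. At 8 h the ATP synthase median is -1.84 and that of cytochrome oxidase -1.79, while the NADH dehydrogenases stand at -0.14.

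At the entry points of electrons, the 3 NADH dehydrogenase genes took separate courses. NDI1 (YML120C), whose product oxidises NADH inside the mitochondrion, was at -1.06, -1.31, -1.16, -1.05, -1.40, -1.36 and -1.41 from 1 h to 8 h. It was therefore more than 2-fold below 0 h at every sampled hour, with no passing trend (adjusted p = 0.368). NDE1 (YMR145C) and NDE2 (YDL085W) encode the external enzymes, which oxidise NADH of the cytosol. NDE1 was at -0.70, -0.46, -0.24, -0.31, -0.19, -0.15 and -0.14, and rose by this small amount (limma adjusted p = 0.0456), a call lost when any 1 hour was left out. NDE2 was at 2.43, 0.96, 0.28, 0.44, -0.29, -0.20 and 0.19. At 1 h it stood 5.39-fold above 0 h, the highest value of any member at any hour, and it fell afterwards (adjusted p = 0.00622).

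Succinate dehydrogenase links the citric acid cycle to the chain, and its median stayed between -0.49 and -0.23 up to 4 h before reaching -1.36 at 8 h. SDH1 (YKL148C), the flavoprotein subunit gene, was at -0.31, -0.48, -0.32, -0.53, -1.23, -1.26 and -1.36 and fell (adjusted p = 0.027). SDH2 (YLL041C), the iron-sulfur subunit gene, fell in the same test (adjusted p = 0.0331), with -0.41 at 1 h and -1.35 at 8 h. SDH3 (YKL141W), a membrane anchor gene, was at -0.28, -0.66, -0.55, -0.59, -1.33, -1.53 and -1.96, which is 3.89-fold below 0 h at the end (adjusted p = 0.00883). In all of these 3 genes the values at 5, 6 and 8 h lay below every earlier value. SDH4 (YDR178W), the other membrane anchor gene, was at -0.41, -0.44, 0.16, 0.73, -0.06, -0.19 and -0.34. It passed no trend test (adjusted p = 0.21), and its value at 4 h was the only one above 0.5 in the complex.

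In the bc1 complex 6 of 9 genes were repressed and 2 fell in the trend test. The complex had medians of -0.66 at 1 h, -0.41 at 4 h and -1.36 at the end. All 9 stood higher at 4 h than at 1 h, by 0.02 to 0.68, and all but QCR9 (YGR183C) stood lower at 5 h than at 4 h. RIP1 (YEL024W), the Rieske iron-sulfur protein gene, was at -0.46, -0.62, -0.29, -0.19, -0.87, -1.04 and -1.51 and fell (adjusted p = 0.0255). CYT1 (YOR065W), the cytochrome c1 gene, had a like course, with -0.29 at 4 h and -1.36 at the end, and missed the trend threshold (adjusted p = 0.0895). The catalytic subunits RIP1 and CYT1 were thus less than 2-fold below 0 h at each of the first 4 sampled hours.

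The core proteins of the complex, which face the matrix, differed from each other. QCR2 (YPR191W) was at -1.03, -1.13, -0.75, -0.35, -1.41, -1.46 and -1.74, with a scatter around the curve of 0.384. COR1 (YBL045C), the gene of its partner, was at -0.55, -0.44, -0.20, -0.25, -0.31, -0.32 and -0.44, with a scatter of 0.0702. COR1 thus stayed within 1.46-fold of its 0 h level, and neither trend passed (adjusted p = 0.14 for QCR2 and 0.227 for COR1). Of the small subunit genes, QCR10 (YHR001W-A) was lowest at 6 h (-2.10) and QCR7 (YDR529C) at 8 h (-1.90, adjusted p of the trend 0.0456). QCR8 (YJL166W) was repressed only at the end of the course (-1.22 at 6 h), and QCR6 (YFR033C) ranged from -0.83 to -0.41. QCR9 went its own way, with -0.85 at 2 h and 3 h and -0.31 at the end, and missed the threshold (adjusted p = 0.107).

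Cytochrome c is made from either of a pair of genes, CYC1 (YJR048W) for the main aerobic isoform and CYC7 (YEL039C) for the minor one. CYC1 was at -1.55, -2.15, -1.96, -2.04, -2.31, -2.21 and -1.89, the lowest value of any member at each hour from 2 h to 5 h. CYC7 was at 0.00, -0.53, -0.03, 0.23, -0.19, -0.44 and -0.62. The CYC7 value minus the CYC1 value was 1.27 at its smallest (8 h) and 2.27 at its largest (4 h), so the values of the isoforms do not overlap. Neither course passed the trend test (adjusted p = 0.294 for CYC7 and 0.105 for CYC1). The difference between the isoforms was 1.55 at 1 h, and relative to 1 h it was 0.07, 0.38, 0.72, 0.57, 0.22 and -0.28 at the 6 later hours.

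Cytochrome oxidase had 7 repressed genes among 9, with medians of -1.24 at 1 h, -1.04 at 4 h and -1.79 at the end. COX12 (YLR038C), the gene of a small subunit facing the intermembrane space, was at -1.33, -1.56, -1.41, -1.56, -2.22, -2.28 and -2.90, or 7.46-fold below 0 h at 8 h. It fell (adjusted p = 0.00759), and no other member had a lower value at 8 h. COX13 (YGL191W), another small subunit gene, fell as well (adjusted p = 0.0191), with -0.78 at 1 h and -1.79 at 8 h. COX4 (YGL187C) was at -1.29, -1.19, -0.74, -0.65, -1.43, -1.49 and -1.98 (adjusted p = 0.0484). Its trend did not pass with a linear term only (adjusted p = 0.145). COX6 (YHR051W) and COX8 (YLR395C), further subunit genes of nuclear origin, ended at -1.85 and -2.12 without passing the trend test (adjusted p = 0.133 and 0.119). COX7 (YMR256C) stood lowest at 2 h (-1.45) and between -0.91 and -0.66 from 3 h on. COX9 (YDL067C) ranged from -0.74 to -0.20 and was the one oxidase gene in neither class.

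COX5A (YNL052W) and COX5B (YIL111W) encode alternative forms of a single oxidase subunit, the first made mainly in air and the second mainly at low oxygen. COX5A was at -1.41, -1.59, -1.22, -1.11, -1.49, -1.61 and -1.68, below 0 h at every hour, with no trend (adjusted p = 0.324). COX5B was at 0.10, -0.76, -0.64, -0.13, 1.00, 1.22 and 1.45, and rose (adjusted p = 0.0455). Its call was lost without 2, 3, 4 or 6 h and with columns scaled to the same SD, and its scatter around the curve was the widest of the members (0.59). From 1 h to 8 h COX5B minus COX5A was 1.51, 0.83, 0.58, 0.98, 2.49, 2.83 and 3.13, the last an 8.75-fold shift of the pair relative to 0 h. That shift was 5.41-fold with columns scaled to the same SD and 3.07-fold when taken relative to 1 h. The ratio of the messages themselves is not given by these values, since each is relative to its own 0 h level.

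HOS4, the gene before COX5B in the reference annotation and on the same strand by its systematic name, encodes a subunit of a histone deacetylase complex. It was at -0.11, -0.32, -0.14, 0.47, 2.35, 2.30 and 2.34 over the same hours. HPM1, on the other side, ranged from -0.60 to -0.14. The part of a neighbour in the COX5B values was not tested, and the neighbours were looked up after the values were seen. Neighbours of NDE2, SDH4, ATP10 and the ADP/ATP carrier gene AAC1 were looked up too. Values at 8 h were 3.04 for UBC1 and 0.79 for CSN9, beside SDH4 at -0.34. They were -0.99 for BUB2 and -3.76 for FET3, beside AAC1 at 2.08. SUB2, beside NDE2, stood at -0.32 at 1 h, where NDE2 stood at 2.43. The other neighbour of NDE2 had no values.

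**Figure D4:**
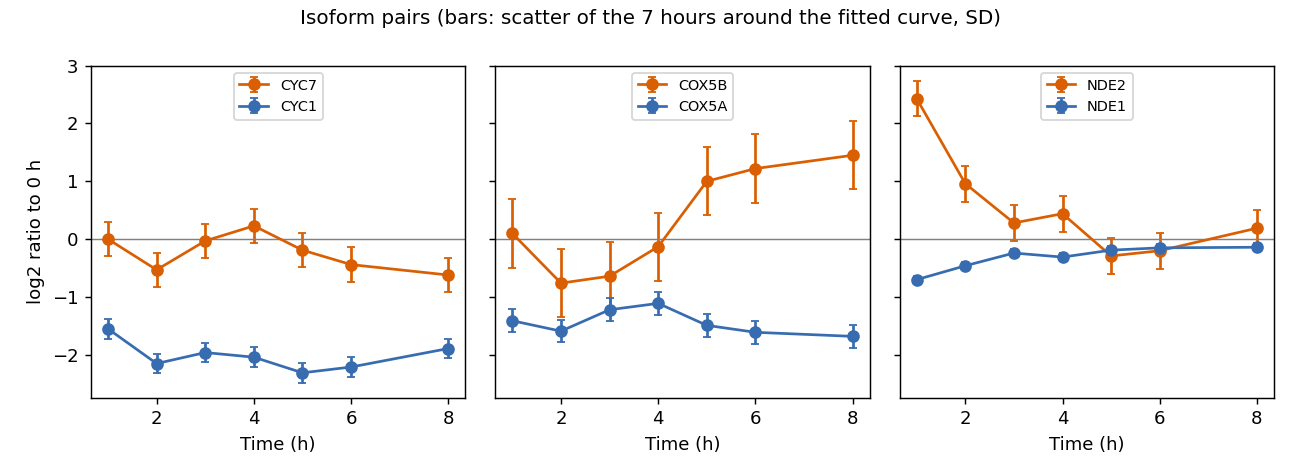
Log2 ratio to 0 h (vertical axis) against time in hours for the isoform pairs CYC7 and CYC1, COX5B and COX5A, and NDE2 and NDE1, with bars showing the residual SD of the 7 hours around each gene's fitted curve. CYC7 stays above CYC1 throughout, COX5B separates further from COX5A from 5 h, and NDE2 meets NDE1 by 5 h.

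From 1 h to 8 h the difference within the external NADH dehydrogenase pair became smaller, while that within the oxidase pair became larger. Both differences became smaller from 1 h to 3 h. NDE2 minus NDE1 was 3.13, 1.42, 0.52, 0.75, -0.10, -0.05 and 0.33 from 1 h to 8 h. Differences between the courses of paralogs were not tested, and signal shared between similar sequences on the array could not be examined without the probe sequences.

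The ATP synthase had 8 repressed genes among 12, with medians of -1.19 at 1 h, -0.90 at 4 h, then -1.70 at 5 h and -1.84 at the end. All 12 stood lower at 5 h than at 4 h. In the catalytic head, ATP1 (YBL099W) and ATP2 (YJR121W) encode the alpha and beta subunits. ATP1 was at -1.20, -1.56, -1.12, -0.86, -1.70, -1.71 and -1.71, with no trend (adjusted p = 0.372). ATP2 was at -1.18, -1.40, -1.23, -1.28, -2.11, -2.24 and -2.58, which is 5.98-fold below 0 h at 8 h, and fell (adjusted p = 0.0165). The partner subunits thus had like values at 1 h and ended 0.87 apart.

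The rotor stalk genes also parted. ATP3 (YBR039W), the gamma subunit gene, stayed between -1.96 and -1.34 (adjusted p = 0.0571), and ATP16 (YDL004W), the delta subunit gene, was highest at 4 h (-0.94) and lowest at 8 h (-1.97, adjusted p = 0.119). ATP15 (YPL271W), the gene of the small epsilon subunit, stood at -0.95 at 1 h, -0.25 at 3 h and -0.98 at 8 h and was never 2-fold below 0 h.

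Among the genes of the peripheral stalk and membrane part, ATP17 (YDR377W) fell (adjusted p = 0.0229), with -1.06 at 1 h, -0.99 at 4 h and -2.07 at 8 h. ATP5 (YDR298C), which joins the stalk to the head, was at -1.65, -1.27, -1.02, -0.84, -1.74, -2.01 and -2.32. ATP4 (YPL078C), the gene of stalk subunit b, was at -1.37 at 1 h and -2.08 at 5 h. The trends of ATP4 and ATP5 lay just outside the threshold (adjusted p = 0.0537 and 0.0575). ATP14 (YLR295C) was the lowest member at 1 h (-1.71) and stood higher from 3 h on, between -1.34 and -0.85. ATP7 (YKL016C) ranged only from -1.08 to -0.70 (adjusted p = 0.67). ATP20 (YPR020W), linked to the pairing of ATP synthase complexes, was at -1.11, -0.48, 0.01, -0.30, -0.67, -0.84 and -1.24, a swing of more than 2-fold up and down (adjusted p = 0.067). INH1 (YDL181W), which encodes a protein that blocks ATP hydrolysis by the enzyme, was at -0.96, -0.70, -0.67, -0.21, -0.38, -0.56 and -0.71. At 8 h the inhibitor gene stood close to ATP7 (-0.74), the subunit gene of the enzyme nearest its 0 h level. Their gap was smaller than their residual SDs of 0.144 (INH1) and 0.151 (ATP7).

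The courses were described by the Pearson correlation over the 7 hours, which share their arrays and cultures. The correlation with the mean of the other 38 members was above 0.8 in 23 members, and it was highest for COX6 (0.979), CYT1 (0.978) and QCR2 (0.971). It was negative in 4 members, namely COX5B (-0.854), QCR9 (-0.73), NDE1 (-0.477) and COX9 (-0.17). For these counts the share of all genes is not given here. Pairs of members within a complex had a median correlation of 0.606 and pairs from different complexes 0.597, while all pairs of genes in the table had a median of 0.00449. By complex the median was 0.682 for succinate dehydrogenase, 0.676 for bc1, 0.633 for the ATP synthase, 0.389 for cytochrome oxidase and -0.634 for the NADH dehydrogenases. These differences were not tested. The lowest of the 7 values belonged to 1 h in 6 members, to 2 h in 4, to 5 h in 3, to 6 h in 5 and to 8 h in 21. Over all genes the lowest value lay at 8 h in 26.5%, at 1 h in 27.7%, at 2 h in 8.31%, at 5 h in 14.3% and at 6 h in 5.93%. With columns scaled to the same SD it lay at 8 h in 8 members and at 1 h and 2 h in 15 each, against 25.5%, 27.9% and 10.8% of all genes.

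Of 64 other genes of the pathway, in 10 lists, 57 had values. Among these 15 were repressed (against 16.4% of all genes) and 6 were induced (21.8%), while 11 fell (25.2%) and 16 rose (23.3%) in the trend test. The 11 include SHH4 and STF2, which were lowest at 5 h and higher again at 8 h. With columns scaled to the same SD, 4 fell and 15 rose, against 15.2% and 17.8% of all genes. Without 1 h 7 fell, against 21.8% of all genes. Without 2 h or 6 h 6 rose, against 11.8% and 12.1% of all genes. The repressed share was 26.3% in these 57 genes and 64.1% in the 39 subunit genes, a difference that was not tested. Trend calls named below were lost without some hours for HAP2 (any hour), PET191 (any but 1 h), BCS1 and COX20 (5 of 7 hours), HAP3 (2, 3 or 6 h), ATP11 and COQ4 (2, 4 or 6 h), FMC1 (2 or 6 h), SCO1 (2 h), and HAP5 and CAT5 (8 h).

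The regulators of respiratory genes moved in different directions. Hap2, Hap3 and Hap5 bind DNA together, and Hap4 is the activating subunit that joins them when yeast respires. HAP4 was at -0.84, -0.90, -0.46, -0.23, 0.36, 0.71 and 1.14 and rose (adjusted p = 0.00413), also with columns scaled to the same SD. HAP3 rose to 0.47 at 8 h, after -0.34 at 1 h (adjusted p = 0.0304). HAP5 was at -0.44, -0.71, -0.74, -0.72, -0.91, -1.01 and -1.54 and was repressed, with a downward trend (adjusted p = 0.0125) that did not pass after scaling. HAP2 ranged from -0.67 to -0.10 (adjusted p = 0.0377, not passing after scaling). HAP1, a heme-responsive activator gene, ranged from -0.55 to -0.07, and ROX1, the repressor gene of low-oxygen genes such as COX5B, from -0.90 to -0.36. Neither of these trends passed (adjusted p = 0.116 and 0.288).

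**Figure D5:**
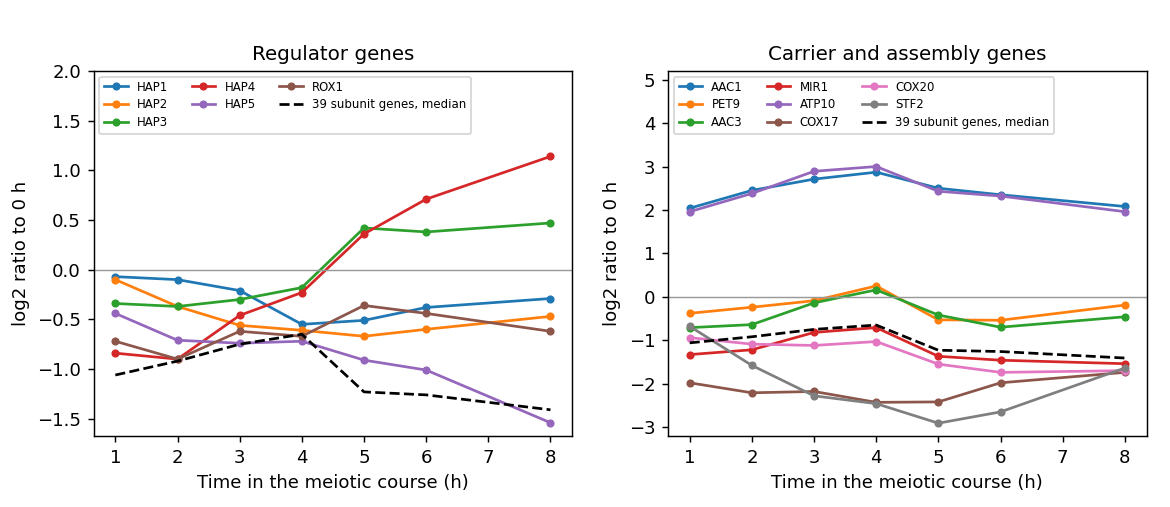
Log2 ratio to 0 h (vertical axes, which differ between panels) against time in hours for 6 regulator genes (left) and 8 carrier, assembly and accessory genes (right), with the median of the 39 subunit genes dashed. HAP4 ends at 1.14 and HAP5 at -1.54, while AAC1 and ATP10 stay near 2 or above.

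Among the carriers that serve the ATP synthase, AAC1, a minor ADP/ATP carrier gene, was at 2.04, 2.45, 2.71, 2.87, 2.50, 2.35 and 2.08. It was induced at every hour, with no passing trend within the course (adjusted p = 0.0539). Its paralogs, named after their values were seen, differed from it in level: PET9, the main carrier gene, ranged from -0.54 to 0.25 and AAC3 from -0.71 to 0.16. MIR1, the phosphate carrier gene, was repressed, with -1.33 at 1 h, -0.71 at 4 h and -1.54 at 8 h (adjusted p = 0.228). AAC1, PET9, AAC3 and MIR1 each had their highest value at 4 h. PIC2, another carrier gene of the inner membrane, fell (adjusted p = 0.014, not passing after scaling), with -0.47 at 1 h and -1.61 at 8 h.

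ATP10, an assembly factor gene of the ATP synthase, was at 1.96, 2.38, 2.89, 3.00, 2.43, 2.32 and 1.96. It was induced at every hour (adjusted p of the trend 0.0608), while the medians of the enzyme's genes lay below 0. Its differences between hours were 1.04 (4 h minus 1 h), -0.57 (5 h minus 4 h) and -0.47 (8 h minus 5 h). The median differences of the ATP synthase genes had the same signs, at 0.465, -0.495 and -0.305. CST9, a meiotic recombination gene next to ATP10 and on the same strand by its systematic name, was at 0.34, 0.98, 1.69, 2.04, 1.48, 1.35 and 1.06. Both peaked at 4 h, as did ATP1, ATP5, ATP7, ATP16 and INH1, while the other ATP synthase genes had their highest value earlier. ART10, on the other side of ATP10, ranged from -1.07 to 0.05. The part of a neighbour in the ATP10 values was not tested. The other assembly genes of the enzyme ranged lower. ATP22 fell (adjusted p = 0.0113) to -1.44 at 8 h, while FMC1 rose to 0.53 (adjusted p = 0.0278) and ATP11 was at 0.43 at 8 h after -0.47 at 1 h (adjusted p = 0.0418).

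Of 16 measured cytochrome oxidase assembly genes 7 were repressed and 2 induced, and 3 fell and 6 rose. COX17, which carries copper to the oxidase, was at -1.98, -2.21, -2.18, -2.43, -2.42, -1.98 and -1.74, among the lowest values given here at 1 h (adjusted p = 0.0625). COX20, a chaperone gene of the oxidase, fell (adjusted p = 0.0401) to -1.70 at 8 h, a call not made after scaling. COX10, which makes heme O, fell (adjusted p = 0.00817), with -0.56 at 1 h and -1.71 at 8 h. PET191 was repressed in the middle of the course (-1.19 at 3 h) and rose to -0.38 at 8 h (adjusted p = 0.0404, not passing after scaling). These named genes were all repressed, and of the 6 that rose they include only PET191. SCO1, named after its values were seen, was induced. It stood at -0.41 at 1 h and rose to 1.47 at 8 h (adjusted p = 0.0158, also passing after scaling).

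For the bc1 complex 1 of 6 assembly genes was repressed, CBP4 (-1.28 at 6 h), and CBP3, MZM1 and BCS1 rose, BCS1 not after scaling. CBP3 stood at 0.62 and MZM1 at -0.03 at 8 h, after -0.29 and -1.01 at 1 h (adjusted p = 0.00978 and 0.0125). STF2, first described as a stabilising factor of the inhibited ATP synthase, was at -0.68, -1.58, -2.28, -2.46, -2.91, -2.65 and -1.64. Its course passed the test (adjusted p = 0.00277), with a low at 5 h rather than at the end, and its fitted difference from 1 h to 8 h turned slightly upward after scaling.

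In the succinate dehydrogenase family, SHH3, a paralog of SDH3, was at 0.57, 0.63, 0.62, 0.53, 1.07, 1.46 and 2.64, and rose (adjusted p = 0.00284). SDH3 itself stood at -1.96 at 8 h, so the pair ended far apart. SHH4, the paralog of SDH4, was at 0.96 at 1 h, -0.97 at 5 h and 0.93 at 8 h (adjusted p = 0.00529). It counts as falling by its fitted difference from 1 h to 8 h of -0.28, which became 0.42 when 1 h was left out. Of 9 genes for coenzyme Q, the carrier between the dehydrogenases and the bc1 complex, 2 were repressed and 1 was induced. COQ6 fell (adjusted p = 0.00852), with 0.31 at 1 h and -1.66 at 8 h, and CAT5, also known as COQ7, fell to -1.45 (adjusted p = 0.0157, not passing after scaling). COQ4 was induced and rose to 1.41 at 8 h (adjusted p = 0.0317, not passing after scaling), and COQ9 was repressed at -1.06 at 5 h.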

How the data were processed

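The authors' deposited table of log2 ratios to 0 h was used as given, with 1 column per hour and no further normalization. Per the series design, each hour was measured against a common meiotic mix and divided by the 0 h ratio, in cultures described as 3 independent ones; how these were combined, the background correction, the normalization and the array platform are not given in the sources. Dye assignment (hour in Cy5, mix in Cy3) follows the labels. Column medians lay between -0.04 and 0.01, and whether the authors centred the columns is unknown. An error at 0 h enters all 7 values of a gene. No spot intensities were used, and precision is limited by the few arrays.

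Of 6141 rows, 5666 had all 7 values and 475 had none. Names came from RefSeq's R64 table, used for names and neighbours only, and it matched all 39 subunit genes. The trend test used limma 3.58.1 in R 4.3.3 with 4 residual and 2.354 prior degrees of freedom. It was tried on simulated straight-line changes with independent noise. That setting is simpler than these data and cannot vouch for the calls made here. Other genes are named where repressed, induced or called, up to 4 per list by held level (the level reached at 2 consecutive hours), besides all 6 regulators. The members and lists were chosen with earlier results of these data known. Tables and plots were made with Python 3.11.15, pandas 2.3.3, numpy 2.4.6 and matplotlib 3.10.9. Alternatives were other thresholds, scaling, centring, the ratio to 1 h, trend settings and leaving out each hour. A planned search of promoters and comparison of proteins was not made here.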

Additional observations from a re-analysis of the deposited data

How the results depend on the processing

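No paired analysis was possible because each hour is 1 column with no replicates. Leaving out 1 hour at a time gave 23 to 25 repressed and 1 induced member, 4 to 12 falling and 0 to 2 rising, and 7 to 10 falling and 6 to 18 rising among the other pathway genes. Over all genes 14.1% to 16.1% were then repressed, 20% to 21.1% induced, 12.7% to 21.9% falling and 11.8% to 26.3% rising. The lower counts of falling members came without 1 h (7), 2 h (6), 3 h (7) and 6 h (4); the share of all genes called as falling was also lower there. At 1.5-fold 2 members were induced, against 34.4% of all genes. By that cut 8 members stood higher at 4 h than at 1 h, 18 lower at 5 h than at 4 h and 3 lower at 8 h than at 5 h. The shares of all genes for these steps at 1.5-fold are not given here. At 3-fold 15 were repressed and 0 induced, against 6.27% and 11.9% of all genes. With the ratio to 1 h 3 were repressed, and the difference of CYC7 minus CYC1 was 0.07 at 2 h and -0.28 at 8 h, of COX5B minus COX5A -0.68 and 1.62, and of NDE2 minus NDE1 -1.71 and -2.80; this subtracts the 1 h difference by construction. With a linear term only 1 member rose, against 20.3% of all genes.

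With columns scaled to the same SD, 2 members fell and 5 rose, against 15.2% and 17.8% of all genes, and 4 other pathway genes fell. For the steps and the counts of members higher or lower between hours, this alternative was chosen after seeing the data. By it 5 members stood 2-fold higher at 4 h than at 1 h. At 5 h 0 members stood 2-fold lower and 0 stood 2-fold higher than at 4 h. At 5 h 12 members were higher and the median step was -0.15. The shares of all genes for these steps under scaling are not given here. In an alternative also added later, the lowest value then lay at 1 h in 15 members, at 2 h in 15, at 5 h in 1, at 6 h in 0 and at 8 h in 8. The fitted change of QCR7 was then 0.26 and that of COX4 0.14, both upward. Medians at 8 h became -1.05 for succinate dehydrogenase, -1.06 for bc1, -0.98 for cytochrome c, -1.39 for cytochrome oxidase, -1.43 for the ATP synthase and -1.10 for all members. CYC7 minus CYC1 became 2.18 and NDE2 minus NDE1 1.91 at 2 h, and COX5B minus COX5A 2.43 at 8 h. Means in place of medians were -0.45 for the NADH dehydrogenases and -1.34 for cytochrome oxidase at 8 h, and -0.18 for succinate dehydrogenase at 4 h.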
